A study of Mus musculus with 4 samples.

Results

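The transcripts described here encode the proteins of the mitochondrial ribosome, the machine that translates the few messages of mitochondrial DNA inside the organelle. Members were all genes whose symbol in the platform annotation starts with Mrpl (large subunit) or Mrps (small subunit) followed by a digit, over probe sets annotated with 1 symbol. The rule found 76 genes with 156 probe sets, of 18193 genes and 45037 probe sets on the array: 47 large-subunit genes with 104 probe sets and 29 small-subunit genes with 52 probe sets. A further 4 probe sets carried a member's symbol beside that of another gene and were not used, so Mrpl30 and Mrpl53 are not described.

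Total RNA of heart and of muscle was measured on 4 oligonucleotide arrays, 1 for each tissue from d/d mice and 1 for each from f/f mice. The d/d mice were homozygous for a deletion of Sod2, the gene of the mitochondrial superoxide dismutase MnSOD, made by crossing homozygous floxed Sod2 with an MCK-Cre transgene that is active in striated muscle. The f/f mice carried the same floxed Sod2 on both alleles and served as controls. The deletion is therefore limited to the cells in which MCK-Cre acts, and whole tissue also holds other cells. The labels give neither the age of the mice, nor the muscle taken, nor the number of animals behind a sample. With 1 array a group, every difference between genotypes or tissues describes a pair of arrays and has no error between animals.

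Most of the work of the mitochondrial ribosome serves oxidative phosphorylation, because the proteins made from mitochondrial DNA are core subunits of the respiratory complexes and of ATP synthase. The ribosome's RNAs are transcribed in the organelle, whereas all of its proteins are encoded in the nucleus, made in the cytosol and imported. Some of them have counterparts in bacterial ribosomes, and others are particular to mitochondria. Heart and skeletal muscle are rich in mitochondria, and in people defects of several of these genes cause disease of heart, muscle or brain.

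All 76 genes were above the signal floor on all 4 arrays, where the floor of 7.51, the mean of the arrays' 40th percentiles, stands for background and 58.0% to 61.1% of probe sets lay above it. Signals are in arbitrary units, scaled so that the arrays have the same trimmed mean, and where a gene has several probe sets the brightest on average over the arrays stands for it. The median signal of the large-subunit genes was 359 in d/d heart against 410 in f/f heart, and 373 in d/d muscle against 375 in f/f muscle. The median of the small-subunit genes was 337 in d/d heart against 347 in f/f heart, and 314 in d/d muscle against 361 in f/f muscle. Signals of different probe sets do not measure relative amounts of transcript, so genes are compared only with themselves across arrays. Sod2 itself read lower in d/d heart on its 4 probe sets, by 0.21 to 1.22 on the log2 scale, whereas in muscle its differences ran from -0.44 to 0.06. The labels do not say whether these probe sets lie in the deleted part, so they check the labels only in part. Of the markers of muscle cells, those of heart summed to 37402 in d/d heart against 35305 in f/f heart, and 372 in d/d muscle against 1378 in f/f muscle. Of these 7 markers, 3 were higher and 4 lower in d/d heart. Nppa had 6781 in d/d heart against 3658 in f/f heart, and Ryr2 had 808 in d/d heart against 1812 in f/f heart. The markers of skeletal fibre summed to 8797 in d/d heart against 5818 in f/f heart, and 69073 in d/d muscle against 67278 in f/f muscle. In heart almost all of the skeletal sum was Acta1 and Ckm, which heart also expresses, while Tnnt3 and Tnni2 were under the floor on both heart arrays. Acta1 had 4668 in d/d heart against 1499 in f/f heart, whereas Ckm had 4097 in d/d heart against 4256 in f/f heart. Of the 8 skeletal markers, 2 were higher and 4 lower in d/d heart.

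Promoter sequences from RefSeq (GRCm38.p6) were matched by symbol for 67 of the 76 genes, each covering 250 bases before and 50 after the annotated start. Nuclear genes for mitochondrial proteins are known targets of the factors NRF-1, GABP (also called NRF-2), YY1 and the estrogen-related receptors, so their core motifs were searched on both strands. The 8 bases CGCATGCG (NRF-1) were found in 7 of 67 members (10.4%), against 4.10% of 10329 measured genes with a promoter. The GABP letters CCGGAAG were found in 25 members (37.3%), against 18.5% of measured genes. The YY1 letters AAGATGGCG occurred in 8 members (11.9%), against 3.32%, and the receptor motif TCAAGGTCA in 0 members, against 0.349%. These are matches of letters and do not show binding. The promoters of 5 members whose transcripts are described in detail are printed, 5' to 3' on the strand of the gene, with a motif found by the search in capitals. Mrps10, at chr17:47368947-47369246 on the plus strand, held none of the 4 motifs. Mrps21, at chr3:95871465-95871764 on the minus strand, held the GABP motif on the opposite strand, 19 bases into the transcript. Mrpl33, at chr5:31613701-31614000 on the plus strand, held the GABP motif from 3 bases before the start. Mrpl39, at chr16:84735195-84735494 on the minus strand, held the NRF-1 motif, which reads the same on both strands, from 124 bases before the start. Mrps11, at chr7:78782881-78783180 on the plus strand, held the YY1 motif on the opposite strand, from 108 bases before the start.
Mrps10: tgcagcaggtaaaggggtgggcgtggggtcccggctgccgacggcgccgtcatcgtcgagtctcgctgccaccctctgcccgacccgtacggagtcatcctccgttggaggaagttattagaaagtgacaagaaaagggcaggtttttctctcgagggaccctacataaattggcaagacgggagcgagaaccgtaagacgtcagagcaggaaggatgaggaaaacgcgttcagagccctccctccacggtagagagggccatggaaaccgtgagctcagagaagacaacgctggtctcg
Mrps21: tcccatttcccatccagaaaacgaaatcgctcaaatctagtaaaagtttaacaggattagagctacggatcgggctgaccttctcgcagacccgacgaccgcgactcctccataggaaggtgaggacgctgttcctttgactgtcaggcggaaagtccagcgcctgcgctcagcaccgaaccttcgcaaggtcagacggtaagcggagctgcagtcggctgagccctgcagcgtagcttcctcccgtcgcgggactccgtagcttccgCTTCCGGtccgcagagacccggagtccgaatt
Mrpl33: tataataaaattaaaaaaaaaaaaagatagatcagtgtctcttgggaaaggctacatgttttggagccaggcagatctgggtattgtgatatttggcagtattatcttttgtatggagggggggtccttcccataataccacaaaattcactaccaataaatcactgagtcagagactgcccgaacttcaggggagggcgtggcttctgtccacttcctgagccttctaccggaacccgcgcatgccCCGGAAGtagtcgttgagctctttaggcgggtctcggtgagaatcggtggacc
Mrpl39: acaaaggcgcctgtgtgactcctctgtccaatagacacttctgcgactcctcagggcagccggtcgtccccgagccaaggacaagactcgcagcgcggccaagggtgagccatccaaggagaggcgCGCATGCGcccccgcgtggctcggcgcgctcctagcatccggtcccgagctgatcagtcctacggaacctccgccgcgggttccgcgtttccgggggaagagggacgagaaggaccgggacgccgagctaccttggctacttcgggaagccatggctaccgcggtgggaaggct
Mrps11: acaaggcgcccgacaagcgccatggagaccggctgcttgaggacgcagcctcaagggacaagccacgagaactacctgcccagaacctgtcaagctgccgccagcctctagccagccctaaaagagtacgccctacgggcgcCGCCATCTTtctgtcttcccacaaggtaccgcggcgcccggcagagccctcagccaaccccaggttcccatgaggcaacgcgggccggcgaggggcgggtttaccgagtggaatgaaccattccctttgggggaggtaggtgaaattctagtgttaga

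The first comparison asks how these transcripts differed in heart with the Sod2 deletion. In d/d heart most of them read a little lower than in f/f heart, by a median of 0.18 on the log2 scale for the large subunit and 0.14 for the small subunit. The log2 difference was below 0 for 35 of 47 large-subunit genes and 22 of 29 small-subunit genes, 57 of 76 in all (75%), whereas 52.6% of the 12835 genes measured were below 0, with a median of -0.027. Differences of single genes were small. The large subunit ranged from -0.59 to 0.37 and the small subunit from -0.64 to 0.74. Only 2 members read at least 1.5-fold higher in d/d heart, where 11.3% of all genes did, and 4 read at least 1.5-fold lower, where 12.8% did. Both counts are below the share over all genes. Over the 139 measured probe sets of the members, 96 were below 0, with a median of -0.15.

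No test can be made on 1 pair of arrays. For single genes, probe sets of the same member scattered around their mean difference with an SD of 0.371 in heart (log2). In whole tissue, fewer cells of a type and less RNA per cell cannot be told apart. Markers of other cell types differed between the same arrays: 6 fibroblast genes summed to 8635 in d/d heart against 5024 in f/f heart, and all 6 were higher in d/d heart. The 6 macrophage markers summed to 1443 in d/d heart against 1007 in f/f heart, with 5 of 6 higher, and the 4 endothelial markers to 928 in d/d heart against 812 in f/f heart, with 2 of 4 higher. None of these 16 markers was at the floor on any array. Adipoq, the 1 adipocyte marker measured, had 10.4 in d/d heart against 46.6 in f/f heart. The part of other cells in the members' differences was not tested.

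In the large subunit, Mrpl45 had a signal of 219.8 in d/d heart against 331 in f/f heart, and 233 in d/d muscle against 269 in f/f muscle. Its product lies near the exit of the peptide tunnel and takes part in holding the ribosome at the inner membrane. By the brightest probe sets, the heart difference, -0.59 (1.51-fold), was the only one of the large subunit past 1.5-fold, and in muscle the difference was -0.20. Some dimmer probe sets passed it too: Mrpl51 had -0.28 in heart on its brightest probe set but -0.84 and -0.93 on others. Mrpl50, a protein particular to the mitochondrial ribosome, had 256 in d/d heart against 381 in f/f heart, and 268 in d/d muscle against 212 in f/f muscle. It read 1.49-fold lower in d/d heart, just inside the 1.5-fold limit. In muscle d/d read higher by 0.33, and its second probe set read lower in both tissues, by 0.35 and 0.29.

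Mrpl39 had 1256 in d/d heart against 1854 in f/f heart, and 725 in d/d muscle against 821 in f/f muscle. It is a further protein of the large subunit without a bacterial counterpart, and d/d was the lower genotype in both tissues. Its log2 difference was -0.56 in heart and -0.18 in muscle, and its second probe set gave -0.61 and -0.14. Mrpl36 had 132 in d/d heart against 192 in f/f heart, and 175 in d/d muscle against 153 in f/f muscle, differences of -0.54 and 0.19. Its bacterial counterpart is the smallest protein of the large subunit. Mrpl42, again particular to mitochondria, had 2084 in d/d heart against 2888 in f/f heart, and 3147 in d/d muscle against 2783 in f/f muscle. Like Mrpl36 it read lower in d/d heart and slightly higher in d/d muscle, by -0.47 and 0.18.

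The large-subunit genes that read highest in d/d relative to f/f heart were Mrpl54, Mrpl20, Mrpl41 and Mrpl33, with differences of 0.37, 0.28, 0.25 and 0.24. Mrpl54 had 156 in d/d heart against 121 in f/f heart, and 168 in d/d muscle against 166 in f/f muscle. None of the 4 passed 1.5-fold, and for Mrpl41 a second probe set gave -0.17 in heart. With the median of the probe sets' log2 signals on each array, the heart differences were 0.18 for Mrpl54, 0.15 for Mrpl33 and -0.17 for Mrpl41. The other probe set of Mrpl54 was at the floor on both heart arrays, which by itself lowers the value. That of Mrpl33 was dim, with 15.4 in d/d heart against 14.8 in f/f heart. For Mrpl41 the median was its second probe set.
The stalk of the large subunit recruits translation factors. Mrpl12, the stalk protein, which also binds the mitochondrial RNA polymerase, had 901 in d/d heart against 841 in f/f heart, and 594 in d/d muscle against 728 in f/f muscle, differences of 0.10 and -0.29. Mrpl10, which anchors the stalk, differed by -0.12 in heart and -0.15 in muscle, and Mrpl11, at its base, by 0.02 and -0.01. On their brightest probe sets none of these 3 stalk genes passed 1.5-fold in either tissue. Dimmer probe sets of Mrpl11 gave 0.31 and -0.37 in heart, and -0.25 and -0.83 (1.78-fold) in muscle.

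**Figure D1:**
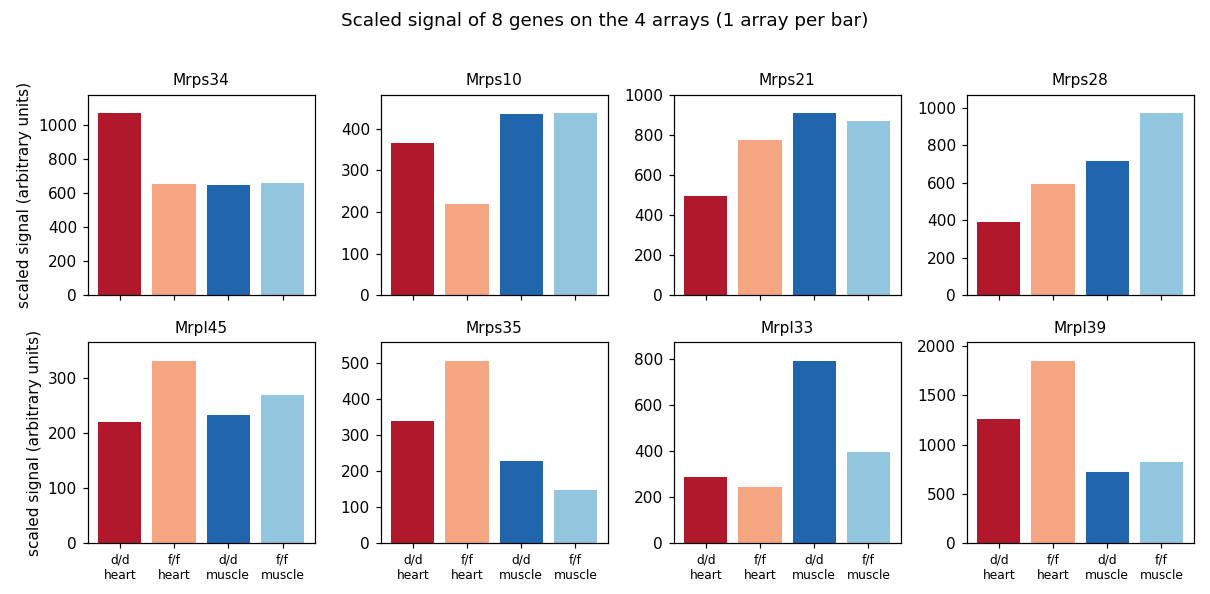
Scaled signal (arbitrary units, axes from 0) of 8 members on the 4 arrays, 1 array per bar, with d/d left of f/f in each tissue. Mrps34 and Mrps10 were higher in d/d than in f/f heart with near-equal muscle bars, Mrps35 ran in opposite directions in the tissues, and Mrpl33 was tallest in d/d muscle.

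In the small subunit, both genes at least 1.5-fold higher in d/d heart were even in muscle. Mrps34, a protein particular to mitochondria, had 1070.3 in d/d heart against 652 in f/f heart, and 646 in d/d muscle against 657 in f/f muscle. The d/d heart array thus stood above the other 3, which lay within a narrow range, and the difference was 0.71 in heart (1.64-fold) and -0.02 in muscle. Mrps34 had 1 usable probe set. Mrps10 had 366 in d/d heart against 218 in f/f heart, and 436 in d/d muscle against 438 in f/f muscle. Here f/f heart was the low array, and the difference was 0.74 in heart (1.67-fold) and -0.01 in muscle. With the median over its probe sets, the second of which was at the floor, the heart difference was 0.37 and no longer past 1.5-fold.

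Small-subunit genes at least 1.5-fold lower in d/d heart were Mrps21, Mrps28 and Mrps35. Mrps21, the counterpart of a small bacterial protein, had 498 in d/d heart against 775 in f/f heart, and 912 in d/d muscle against 869.9 in f/f muscle. Its difference was -0.64 in heart (1.56-fold) and 0.07 in muscle, and the heart difference was -0.55 with the median over its probe sets. Mrps28 had 389.6 in d/d heart against 593 in f/f heart, and 713 in d/d muscle against 973 in f/f muscle. It was lower in d/d in both tissues, by 0.60 (1.52-fold) and 0.45, on its 1 probe set. Mrps35, which is particular to mitochondria, had 338 in d/d heart against 508 in f/f heart, and 229 in d/d muscle against 147 in f/f muscle. It was lower in d/d heart by 0.59, just at the 1.5-fold limit, and higher in d/d muscle by 0.64 (1.56-fold), again on 1 probe set. Scaling to the 75th percentile brought Mrpl45, Mrps28 and Mrps35 in heart to -0.56, -0.57 and -0.55, inside the limit.

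Mrps31 and Mrps36 came next, with differences of -0.56 and -0.53 in heart. Mrps31 had 174 in d/d heart against 257 in f/f heart, and 278 in d/d muscle against 229 in f/f muscle, with a second probe set, near the floor, of opposite sign in both tissues (0.14 and -0.17). With the median over probe sets its heart difference was -0.21 and its muscle difference 0.055. The product of Mrps36 has also been described as a subunit of the 2-oxoglutarate dehydrogenase complex. Mrps12, part of the decoding centre, had 242 in d/d heart against 328 in f/f heart, and 289 in d/d muscle against 361 in f/f muscle. It read lower in d/d in both tissues, by 0.44 and 0.32. Genes are assigned to subunits by symbol, although the products of Mrps18a and Mrps30 lie in the large subunit in structures of the mammalian ribosome. The 3 paralogs of the S18 family stayed within 1.5-fold in both tissues. Their heart differences were -0.06 for Mrps18a, 0.27 for Mrps18b and -0.07 for Mrps18c, and their muscle differences -0.05, 0.20 and 0.12. Mrps18b and Mrps23, a protein particular to mitochondria that had 654 in d/d heart against 552 in f/f heart, followed Mrps10 and Mrps34 as the highest differences of the small subunit in heart. With the median over probe sets that of Mrps23 was 0.10.

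Proteins with and without a bacterial counterpart were also taken apart. In heart the median was -0.19 for the 18 large-subunit genes particular to mitochondria and -0.18 for the 29 with a bacterial counterpart. It was -0.28 for the 11 such genes of the small subunit and -0.10 for the 18 with a counterpart. In muscle the same 4 medians were 0.011, 0.080, 0.034 and -0.038. The groups were not tested against each other.

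The same comparison in muscle showed no shared direction. In d/d muscle the median difference from f/f muscle was 0.021 for the large subunit and -0.0076 for the small subunit, with 0 over all genes measured. The difference was below 0 for 21 of 47 large-subunit genes and 15 of 29 small-subunit genes, 36 of 76 in all, whereas 49.6% of all genes were below 0. At least 1.5-fold higher in d/d muscle were 2 members, Mrpl33 and Mrps35, where 8.13% of all genes were, and 0 members were 1.5-fold lower, where 10.5% of all genes were. Fibroblast markers ran the other way from heart, summing to 4201 in d/d muscle against 6537 in f/f muscle, with 6 of 6 lower. Macrophage markers summed to 483 in d/d muscle against 768 in f/f muscle, again with 6 of 6 lower, and 6 of the 7 heart markers were lower too. Their part in the members' values was not tested.

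Mrpl33, whose product is the counterpart of a small bacterial protein of the large subunit, had 287 in d/d heart against 243 in f/f heart, and 794 in d/d muscle against 398 in f/f muscle. The d/d muscle array stood alone above the others, and the muscle difference of 0.995 (1.99-fold) was the largest of any member in either tissue. Its second probe set was at the floor on both muscle arrays, and with the median over probe sets the difference was 0.50. Below 0 in muscle, Mrps6 had 167 in d/d muscle against 237 in f/f muscle, and 436 in d/d heart against 379 in f/f heart. Its differences were -0.51 in muscle and 0.20 in heart, and its second probe set gave -0.25 and 0.06. Mrpl47 had 326 in d/d muscle against 462 in f/f muscle, a difference of -0.50. A dimmer probe set of Mrpl47 gave 0.70, with 44.4 in d/d muscle against 27.3 in f/f muscle. The dimmest gave -0.90, with d/d muscle at the floor, so the direction of Mrpl47 is not settled. Mrpl3 had 196 in d/d muscle against 274 in f/f muscle, a difference of -0.48, against -0.12 in heart. Its next probe set gave -0.03 in muscle and -0.34 in heart, and the median over probe sets in muscle was -0.061.

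The remaining genes at the ends of the muscle range stayed within 1.5-fold. In the large subunit Mrpl9 and Mrpl57 differed by 0.39 and 0.37, and Mrpl28 and Mrpl12 by -0.32 and -0.29. In the small subunit Mrps31, Mrps25 and Mrps18b differed by 0.28, 0.27 and 0.20, and Mrps28, Mrps12 and Mrps16 by -0.45, -0.32 and -0.18. For Mrpl57 and Mrpl28 other probe sets had the opposite sign, with -0.48 for Mrpl57 and 0.55 for Mrpl28. With the median over probe sets the muscle differences shrank to 0.12 for Mrpl9, -0.13 for Mrpl28, 0.12 for Mrps25 and 0.024 for Mrpl50, and that of Mrpl57 was -0.055.

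**Figure D2:**
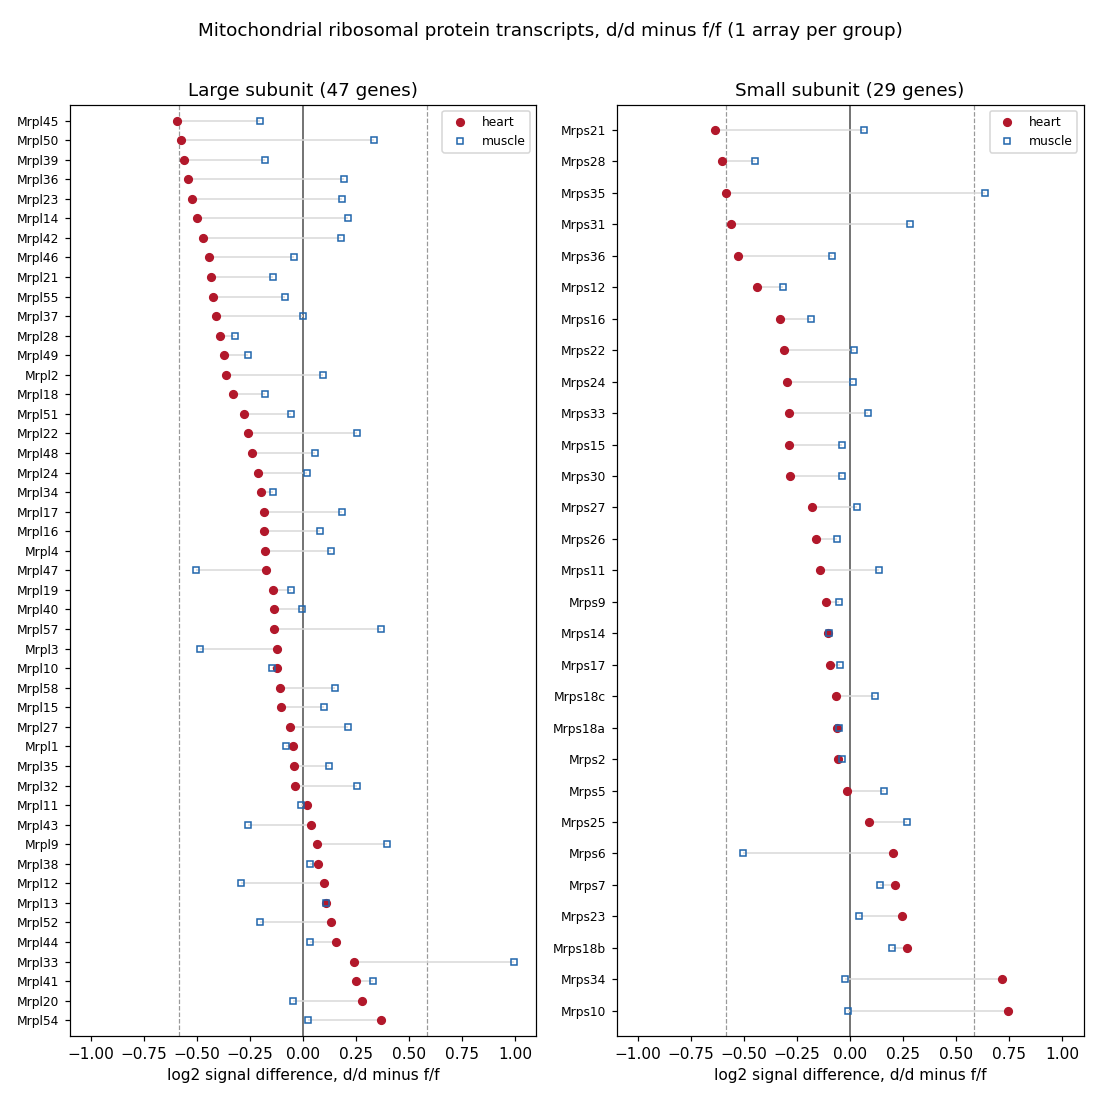
Log2 signal difference, d/d minus f/f, of each of the 76 genes in heart (filled circles) and muscle (open squares), with the large subunit on the left and the small subunit on the right, 1 array per group. Dashed lines mark 1.5-fold. In heart 57 of 76 circles lie left of 0, and in muscle 36 of 76 squares do.

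The plot of differences by gene sets the tissues side by side. A gene's difference in heart said little of its difference in muscle: the Pearson correlation across the 76 genes was 0.0809, as a description over genes that share the same 4 arrays. Lower in d/d heart and higher in d/d muscle were 29 genes (38.2%, and 26.0% of all genes measured). Lower in both were 28, higher in both 11, and higher in heart and lower in muscle 8. The heart difference was below the muscle difference for 57 of 76 members (75%), against 52.0% of all genes, with a median gap of -0.18 for members and -0.031 for all genes. By the brightest probe set, the gap was -0.91 for Mrpl50, -0.84 for Mrps31, -0.75 for Mrpl33 and -1.22 for Mrps35. It was 0.75 for Mrps10, 0.74 for Mrps34 and 0.71 for Mrps6. No test of the gap was possible with 1 array a group.

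The additive limma fit gives the average genotype effect over both tissues and treats the gap between tissues as error, with 1 residual degree of freedom. It called 0 of 76 members at a Benjamini-Hochberg adjusted p of 0.05, where 1 of 13497 genes was called (0.00741%). At an unadjusted p under 0.05 in limma there were 2 of 76 members, where 594 of 13497 genes were. These members were Mrps28 with an effect of -0.53 ± 0.18 (SE) and Mrpl33 with 0.62 ± 0.22 (SE). The sign of the effect was shared by both tissues for each of them.

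Probe sets of the same gene limit how far single values can be read. Of the 37 members with several measured probe sets, 12 in heart and 13 in muscle had probe sets more than 1.5-fold apart in the d/d minus f/f difference. The sign was not shared by all probe sets in 18 members for heart and 19 for muscle. Several of the discordant probe sets were dim. Mrpl15, with 8 probe sets, gave -0.10, 0.08, 0.11 and 0.13 in heart on its 4 bright ones and -1.35 on one whose signal was 6.54 in d/d heart against 19.1 in f/f heart. Mrps5 gave 1.16 in heart on a probe set with 18.8 in d/d heart against 8.42 in f/f heart, but -0.02 on its brightest. Bright probe sets differed too, as the 4 of Mrpl44, each with a signal over 100 on every array, gave heart differences of 0.16, 0.45, -0.28 and -0.18.

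The rest of the mitochondrial translation system was read from gene lists. In the plot of list medians, Dap3, Ptcd3, Chchd1 and Gadd45gip1, which encode ribosomal proteins under other names, had a median of -0.17 in heart and -0.04 in muscle. Dap3, a small-subunit GTP-binding protein, had 449 in d/d heart against 640.4 in f/f heart, and 426 in d/d muscle against 423 in f/f muscle. None of these 4 and none of 11 translation factors passed 1.5-fold in either tissue, and the factors' medians were -0.24 in heart and -0.22 in muscle. Gfm1, the elongation factor of translocation, differed by -0.35 in heart and -0.29 in muscle, and Guf1, a further elongation GTPase, by 0.27 and 0.48. Guf1 was dim, with 16.5 in d/d muscle against 11.8 in f/f muscle. Mtif2, the initiation factor, and Mrrf, which recycles ribosomes, differed by -0.47 and -0.46 in muscle.

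The enzymes that charge mitochondrial tRNAs had the lowest list median in heart. Over 19 of them it was -0.36 in heart and -0.06 in muscle, 16 of 19 were below 0 in heart, and 4 were at least 1.5-fold lower, where 12.8% of all genes were. Cars2, for cysteine, had 48.6 in d/d heart against 100.1 in f/f heart, a difference of -1.04. Gatb, part of the amidotransferase that makes glutaminyl-tRNA, differed by -0.74, and Nars2 and Ears2 by -0.67 and -0.59. In muscle 2 were at least 1.5-fold higher, where 8.13% of all genes were: Vars2 by 1.13 and Mars2 by 0.83, both from signals close to the floor, as Vars2 had 19.3 in d/d muscle against 8.82 in f/f muscle. Of the 14 genes for transcription and upkeep of mitochondrial DNA, 13 were below 0 in heart, with a median of -0.32 there and -0.10 in muscle. Twnk, the DNA helicase, had 75.7 in d/d heart against 133 in f/f heart, and 119 in d/d muscle against 176 in f/f muscle. It was lower in d/d in both, by 0.81 and 0.57, while Polg2, the accessory subunit of the polymerase, differed by -0.53 in heart and 0.80 in muscle. Polg2 was dim, with 29.0 in d/d heart against 41.7 in f/f heart, and 34.8 in d/d muscle against 19.9 in f/f muscle.

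Factors that assemble the ribosome or modify its RNA numbered 25, with a median of -0.24 in heart and -0.02 in muscle. Past 1.5-fold lower in heart were 3 of them, close to the share of all genes (12.8%): Mtg2, a GTPase of large-subunit assembly, which had 47.4 in d/d heart against 109 in f/f heart (-1.20), Gtpbp10 (-0.67) and the rRNA methyltransferase Mrm2 (-0.64). In muscle 4 were, where 10.5% of all genes were, namely Mrm2 (-0.77), the rRNA dimethyltransferase Tfb1m (-0.67), Rpusd3 (-0.65) and Mettl17 (-0.60), and 0 were higher in either tissue. Mrm2 and Rpusd3 were dim, with 16.5 and 15.0 in d/d muscle against 28.2 and 23.6 in f/f muscle. Among 11 regulators of mitochondrial biogenesis the medians were 0.02 in heart and -0.03 in muscle. Ppargc1a had 142 in d/d heart against 255 in f/f heart, and 183 in d/d muscle against 134 in f/f muscle. This coactivator was lower by 0.84 in d/d heart and differed by 0.44 in muscle, whereas its relative Ppargc1b was lower in both, by 0.79 and 0.81. Nrf1 and Gabpa, which encode factors whose motifs were searched, differed by -0.50 and -0.56 in heart and by 0.35 and -0.09 in muscle. Nrf1 was dim in heart, with 21.2 in d/d heart against 30.1 in f/f heart.

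The nuclear genes of respiratory complex I, whose remaining subunits are made by the mitochondrial ribosome, gave a median of -0.17 in heart and 0.06 in muscle, with 28 of 31 below 0 in heart. The 45 measured proteins of the cytosolic ribosome gave 0.03 in heart and 0.10 in muscle. The lists were not tested against each other.

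**Figure D3:**
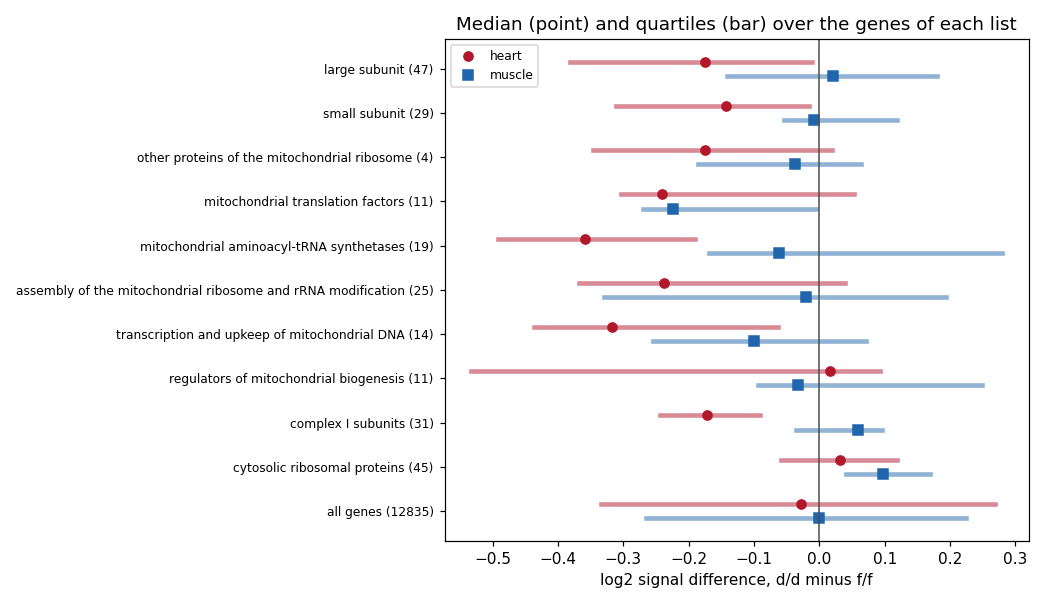
Median (points) and quartiles (bars) of the log2 signal difference, d/d minus f/f, over the measured genes of each list, whose number is in brackets, in heart (circles) and muscle (squares). The heart medians of both subunits, -0.18 and -0.14, lie left of that of all genes, -0.027, and the muscle medians lie near 0.

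Many members start close to another gene on the opposite strand. Of 67 members, 25 (37.3%) had a divergent start within 1000 bases, against 18.6% of measured genes. In 1 such pair both genes are members: Mrpl46, of the large subunit, and Mrps11, of the small subunit, start 42 bases apart, and the printed Mrps11 sequence holds both starts. Mrpl46 had 226 in d/d heart against 307 in f/f heart, and 212 in d/d muscle against 218 in f/f muscle. Mrps11 had 117 in d/d heart against 129 in f/f heart, and 165 in d/d muscle against 150.3 in f/f muscle. The pair differed in the same direction in heart, by -0.44 and -0.14, and in opposite directions in muscle, by -0.04 and 0.14. Other partners belong to the same system: Mrpl43 starts 116 bases from Twnk, Mrps12 147 bases from Sars2, the seryl-tRNA synthetase gene, and Mrpl47 308 bases from the complex I gene Ndufb5. Mrpl43 differed by 0.04 in heart where Twnk differed by -0.81. Over 20 pairs with a measured partner outside the family, both genes differed in the same direction in 12 pairs in heart and 9 in muscle. Members with the GABP motif had a median of -0.18 in heart and those without it -0.16, and for the NRF-1 motif the medians were -0.12 and -0.18.

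The remaining comparison sets heart against muscle. In f/f mice the median log2 difference was 0.12 for the large subunit and 0.086 for the small subunit, with 0.085 over all genes. At least 1.5-fold higher in f/f heart were 11 of 76 members, where 25.9% of all genes were, and 5 were higher in f/f muscle, where 18.4% were. In d/d mice the medians were -0.084 and -0.15, with 0.039 over all genes. Of the members, 8 passed 1.5-fold in favour of d/d heart, where 27.9% of all genes were, and 12 were higher in d/d muscle, where 22.1% were. The members' shares past 1.5-fold were below those of all genes in each case. Their median signal lay at percentile 86.9 to 88.5 of measured genes on the arrays, and the part of signal level in these shares was not tested. These medians change sign with the scaling of the arrays, from -0.029 to 0.55 in f/f mice and -0.27 to 0.38 in d/d mice for the large subunit, so the tissue differences of single members and groups hold for this scaling.

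In the limma fit, whose tissue effect averages both genotypes, 11 of 76 members passed an adjusted p of 0.05. There were 8 higher in heart, where 13.1% of 13497 genes were called, and 3 higher in muscle, where 9.94% were. The split turned with the scaling: it was 7 and 11 after scaling to the 75th percentile, 7 and 12 after centring on the median gene, 7 and 3 after quantile normalization and 30 and 0 on unscaled values. Over all genes, in either direction, 3037 of 13486, 3251 of 13497, 2450 of 13481 and 4520 of 13439 were called in these settings, in the same order. Without an intensity trend in the variance model 1 member was called, where 1840 of 13497 genes were. Without the filter on low signals 0 members and 0 of 18193 genes were called. The p-values measure only the spread among these 4 arrays.

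Mrpl44, an RNase III-like protein of the large subunit, had 552 in d/d heart against 495 in f/f heart, and 216 in d/d muscle against 211 in f/f muscle. On this probe set both heart arrays were above both muscle arrays, and the effect was 1.29 ± 0.19 (SE), with an adjusted p of 0.000593 in limma. Its 3 other probe sets gave smaller heart minus muscle differences, of 0.96, -0.06 and 0.06 in d/d mice and 0.64, 0.38 and 0.23 in f/f mice, and Mrpl44 was not called with the median over probe sets. Mrpl39 was higher in heart by 0.98 ± 0.19 (SE; adjusted p = 0.00335 in limma). Mrpl41 had 635 in d/d heart against 534 in f/f heart, and 334 in d/d muscle against 266 in f/f muscle, an effect of 0.97. Mrpl3, whose bacterial counterpart lies near the catalytic centre, was higher in heart by 0.93, and Mrpl28 by 0.57, with an adjusted p of 0.0494 in limma. The probe sets of Mrpl28 did not share a direction. Besides the brightest, they gave heart minus muscle differences of 0.60 and -0.56 in d/d mice, and 0.84 and -0.31 in f/f mice.

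In the small subunit Mrps35, Mrps6 and Mrps23 were higher in heart, by 1.17, 1.03 and 0.96, with adjusted p-values of 0.00893, 0.00633 and 0.00358 in limma. For Mrps23 the signals were 654 in d/d heart against 552 in f/f heart, and 314 in d/d muscle against 304 in f/f muscle, so the tissues did not overlap. Higher in muscle were Mrpl33, Mrpl37 and Mrps28, with effects of -1.09, -0.80 and -0.79 and adjusted p-values of 0.00421, 0.0267 and 0.00919 in limma. Mrpl37 had 100.4 in d/d heart against 133 in f/f heart, against 202 on both muscle arrays. Of the 11 other settings of the fit, 9 also called Mrpl39, Mrpl41, Mrpl44, Mrps6, Mrps23 and Mrps35, 8 called Mrpl3 and Mrps28, 7 called Mrpl33 and Mrpl37, and 2 called Mrpl28. Like Mrpl44, Mrpl3 and Mrpl33 were not called with the median over probe sets.

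Tissue differences ran similarly in both genotypes. Across the 76 genes the Pearson correlation between the d/d and f/f differences was 0.753, as a description over genes on the same arrays, where it was 0.776 over all genes. In the small subunit, 10 of 11 genes particular to mitochondria were above 0 in f/f mice, with a median of 0.31, and 6 of 18 with a bacterial counterpart were, with a median of -0.19. In d/d mice these medians were 0.087 and -0.33. In the large subunit the same groups had f/f medians of 0.12 each, and d/d medians of -0.032 and -0.11. Mrps10 and Mrps5, with mean differences of -0.63 each, were next after Mrps28 among small-subunit genes higher in muscle, and Mrpl15, at -0.49, came after Mrpl33 and Mrpl37 in the large subunit.

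**Figure D4:**
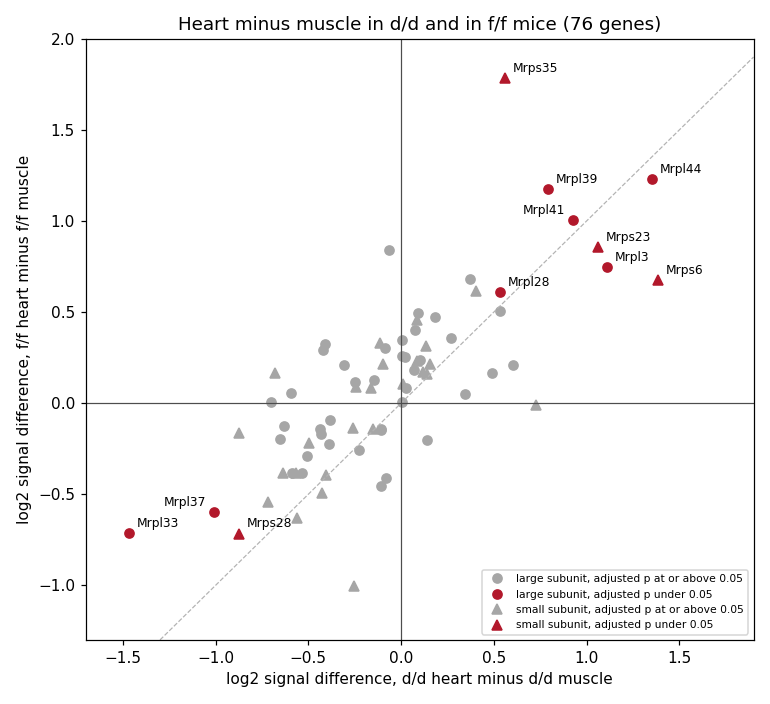
Log2 signal difference, heart minus muscle, of the 76 genes in d/d mice (horizontal axis) and f/f mice (vertical axis), with the line of equality dashed. Red symbols, named, are the 11 genes with an adjusted p under 0.05 in limma: 8 lie at upper right (higher in heart) and 3 at lower left (higher in muscle).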

How the data were processed

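For each of 45101 probe sets the authors deposited a linear intensity on every array. The scan processing and the scaling behind it are not given in the sources used here. Trimmed means of the deposited intensity were 66.6 on the d/d and 69.2 on the f/f heart array, and 48.2 on the d/d and 51.4 on the f/f muscle array. The 64 control probe sets were left out. Each array was scaled to a common 2% trimmed mean, signals under the floor were set to it (7.51, the mean of the arrays' 40th percentiles), and log2 was taken.

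Probe sets were named from the platform annotation, and all 76 member identifiers were found in the RefSeq gene table. A gene counted as measured where the mean of its 4 signals reached the floor, which left 12835 genes. A difference of 1.5-fold or more was counted. limma 3.58.1 (R 4.3.3) fitted genotype and tissue together on the 13497 genes that exceeded the floor on 2 or more arrays, with p-values adjusted by Benjamini-Hochberg, and was tested on simulated data.

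Members and gene lists were chosen with earlier results of these data known. The genes named were the 4 highest and 4 lowest differences per subunit and tissue, those past 1.5-fold, those most different between the tissues, and genes with set roles or discordant probe sets, of which examples are given. From each pathway list the extremes were taken. Scaling, floor, filter, probe set, fold limit, subunit assignment and variance model were varied. For the median over probe sets, the median of a gene's log2 signals was taken on each array, before differences. It is therefore not a median of the probe sets' differences.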

Additional observations from a re-analysis of the deposited data

Results flagged for a closer look

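Mrps35 went opposite ways in the tissues: d/d read lower than f/f in heart, by 0.59 on the log2 scale, and higher than f/f in muscle, by 0.64. The heart difference minus the muscle difference was -1.22. It has 1 probe set and 1 array a group, and the gap between tissues was not tested.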

How the results depend on the processing

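With 1 array a group no replicate could be left out. No paired analysis was possible because each group has 1 array and the labels carry no replicate numbers. In heart the median stayed below 0 under all 11 other settings, at -0.23 to -0.14 for the large subunit and -0.20 to -0.11 for the small subunit, and 55 to 60 of 76 members were below 0. The settings of floor and filter do not test this. All 76 members had signals far above the floor, so these settings could not move the members' differences. In muscle the medians lay between -0.071 and 0.055 and between -0.10 and 0.026, and 32 to 49 members were below 0. The tissue medians followed the scaling, as did the median of all genes, which ran from -0.056 to 0.52 in f/f mice and from -0.15 to 0.50 in d/d mice.

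Without scaling, 9 members were 1.5-fold lower in d/d heart, and 1 was higher and 2 lower in d/d muscle. In f/f mice the large and small medians of heart minus muscle became 0.55 and 0.52, with 36 members higher in heart, 0 lower and 8 below 0. In d/d mice they became 0.38 and 0.32, with 22 higher, 1 lower and 17 below 0. Scaled to the 75th percentile, 1 member was lower in d/d heart, the f/f medians were -0.029 and -0.068 with 7 higher and 8 lower, and the d/d medians were -0.23 and -0.29. Centred on the median gene, the f/f medians were -0.0099 and -0.049 with 7 higher and 8 lower, and the d/d medians were -0.27 and -0.34 with 23 lower. With quantile normalization the large f/f median stood 0.15 above that of all genes. With the median over probe sets, 1 member was higher and 7 lower in d/d heart, 1 was lower in d/d muscle, 5 were higher in d/d heart than in d/d muscle, and Mrpl47 in muscle reversed to 0.70. The share of all genes past 1.5-fold was not counted under these settings, so the counts describe the members only.

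At 2-fold, 0 members were higher and 0 lower in d/d heart and 0 higher in d/d muscle, 4 were higher and 1 lower in f/f heart than in f/f muscle, and 4 higher and 2 lower in the d/d pair. Of all genes, 4.15% and 4.33% passed this limit in heart, 2.52% were higher in d/d muscle, and 13.3% and 9.03% passed it in the f/f and 16.5% and 11.1% in the d/d tissue pair. At a ratio of 5 to 4 as the limit, 3 were higher (21.8% of all genes) and 22 lower (25.8%) in d/d heart, and 6 higher (18.2%) and 4 lower (21.5%) in d/d muscle. At that limit 20 were higher (37.6%) and 14 lower (28.2%) in the f/f tissue pair, and 15 higher (37.8%) and 25 lower (32.6%) in the d/d pair. The limma tissue effect called 30 members without scaling (4520 of 13439 genes), 18 at the 75th percentile (3037 of 13486) and 19 when centred (3251 of 13497). It called 1 without an intensity trend (1840 of 13497 genes) and 0 without a filter on low signals (0 of 18193). Without that filter 19 members and 3241 of 18193 genes had an unadjusted p under 0.05. The genotype effect called 0 members under all 11. At an unadjusted p under 0.05 it had 0 to 6 members, and 359 to 766 of all genes. Causes were not tested. Of 319 values of single genes under other settings, 7 came inside the 1.5-fold limit, and 9 passed it with the same sign. The 319 include values under the floor and filter settings, which could not move. The sign turned in 3, all with the median over probe sets: Mrpl47 in muscle, Mrpl41 in heart (-0.17) and Mrpl57 in muscle (-0.055). For Mrpl47 and Mrpl41 this median is the probe set of middle brightness. Their probe sets, from bright to dim, gave -0.50, 0.70 and -0.90 for Mrpl47 in muscle. For Mrpl41 in heart they gave 0.25, -0.17 and 0.25.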
